A study of Mus musculus with 28 samples.

Results

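Of 3561 RBBP4 peaks in control NIH/3T3 cells, 937 (26.3%, exact 95% interval 24.9 to 27.8) were not touched by an H3K4me3 peak, and these 937 peaks are described here. They were chosen by the overlap of peak calls, with the H3K4me3 calls coming from cells that were not transduced. A peak counted as outside H3K4me3 when no base of it was covered by a peak of the H3K4me3 list, and the other 2624 peaks, called inside H3K4me3, serve as the comparison. Since the H3K4me3 calls chose the peaks, their lack of H3K4me3 is a property of the choice, and so in part is their distance from gene starts. Nearest to the limit, a peak at chr11:84411642-84411847 lay 4 bp and a peak in Pmp22 lay 17 bp from an H3K4me3 peak, while on the other side a peak at chr4:62442074-62442232 was covered by 16 bp. Only 43 of the 937 had an H3K4me3 peak within 1 kb, and the median gap was 26.7 kb.

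RBBP4 is a histone-binding WD-repeat protein that sits in several chromatin complexes, among them NuRD, which joins the nucleosome remodeller CHD4 to the histone deacetylases HDAC1 and HDAC2 and to MTA and MBD proteins, and the Polycomb complex PRC2. H3K4me3 marks the promoters of active genes, and H3K27ac and H3K9ac mark active promoters and enhancers. H3.3 is the histone H3 variant laid down outside of DNA replication, and in mice it is encoded by H3f3a and H3f3b.

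All cells were NIH/3T3 Tet-On 3G mouse fibroblasts, an established embryonic fibroblast line. Control cells of genotype wild type were transduced with GFP-Luciferase/OFP-Luciferase, and H3.3 Knockdown cells with OFP-H3.3A/GFP-H3.3B. RBBP4 and MTA1 were each immunoprecipitated in 1 control and 1 knockdown library, and RNA was sequenced from 2 control and 3 knockdown clones. Other libraries came from wild type cells without transduction (CHD4, HDAC1, HDAC2, MBD2/3, MTA1, RBBP4, H3K27ac, H3K4me3 and H3K9ac, 1 each, called unmodified below), and HA-tagged H3.3 had 2 replicates from wild type cells that carried an HA/FLAG-H3.3 construct and were grown with aphidicolin, a blocker of DNA replication, and doxycycline. With 1 library per ChIP condition no difference between conditions has a replicate check, and intervals on shares cover counting error only.

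The gene starts that carried these peaks were few, and 2 of them are shown because a peak outside H3K4me3 overlapped their start window, from 250 bp before to 50 bp after the start, which was the case for no other of the 16745 of 23951 genes (69.9%) whose strand was known. Peaks inside H3K4me3 overlapped 692 such windows. The peak at chr17:28686318-28686534 (mm9, score 66.25) lay 6 bp from the start of Clpsl2, a gene of the colipase family. The peak at chr2:165981005-165981200 (mm9, score 74.48) lay 80 bp from the start of Sulf2, an extracellular heparan sulfate sulfatase. As a contrast, Cnnm3 had the highest scoring peak inside H3K4me3 among genes with 1 listed start (score 2770.16). The sequences are from RefSeq on GRCm38.p6 and read 5′ to 3′ on the strand of the gene, at chr17:28549237-28549536 (plus) for Clpsl2, chr2:166155634-166155933 (minus, the outermost of several starts) for Sulf2 and chr1:36511617-36511916 (plus) for Cnnm3. Capitals mark each CG, a dinucleotide that reads the same on both strands.
Clpsl2: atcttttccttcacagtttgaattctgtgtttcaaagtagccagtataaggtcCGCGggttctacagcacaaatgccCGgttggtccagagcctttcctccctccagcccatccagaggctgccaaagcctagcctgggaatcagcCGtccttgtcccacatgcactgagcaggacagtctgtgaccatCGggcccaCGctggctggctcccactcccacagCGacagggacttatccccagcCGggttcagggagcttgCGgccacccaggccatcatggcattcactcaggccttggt
Sulf2: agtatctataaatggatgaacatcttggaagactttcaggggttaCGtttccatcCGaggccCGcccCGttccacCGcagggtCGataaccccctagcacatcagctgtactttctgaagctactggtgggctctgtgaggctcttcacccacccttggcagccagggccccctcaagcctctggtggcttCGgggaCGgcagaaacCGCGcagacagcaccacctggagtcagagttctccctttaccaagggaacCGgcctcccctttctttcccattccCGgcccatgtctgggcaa
Cnnm3: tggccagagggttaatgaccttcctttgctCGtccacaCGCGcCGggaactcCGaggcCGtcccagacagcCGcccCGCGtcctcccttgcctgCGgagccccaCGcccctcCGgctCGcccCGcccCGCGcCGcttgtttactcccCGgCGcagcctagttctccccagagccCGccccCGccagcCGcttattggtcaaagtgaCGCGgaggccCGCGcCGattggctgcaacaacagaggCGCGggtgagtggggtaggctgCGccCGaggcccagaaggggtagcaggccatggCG
The Clpsl2 window held 9 CG and the Sulf2 window 12, against 32 in the Cnnm3 window. Over 32851 mouse promoters of the same length the median was 7 CG, 94.6% held at least 1, and 62.1% held 12 or fewer. Over the 862 promoters of genes whose start window was under a peak inside H3K4me3 the median was 27, and 13.6% held 12 or fewer. The Clpsl2 and Sulf2 windows thus lay between these medians. Both genes were silent or nearly so, with Clpsl2 listed at an FPKM (fragments counted relative to transcript length and library size) of 0 in all 5 clones and Sulf2 at 0.0147 or less.

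Most peaks outside H3K4me3 were weak and narrow. The score is the authors' own, as the MACS peak caller gives it, and no peak in the list had less than 50.02. Peaks outside had a median score of 55.58 and a median width of 174 bp, against 80.49 and 263 bp inside. Scores below 60 were held by 645 of the 937 (68.8%) and scores of 60 to 80 by 198, so that 843 lay below 80. Only 27 had a score of 80 to 100, 36 of 100 to 200, and 31 of 200 or more. Read the other way, 47.1% of all control peaks with a score below 60 lay outside H3K4me3, and 7.01% of those with a score of 200 or more.

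Weak and strong peaks differed in whether an RBBP4 peak was present at the same place in the knockdown cells. An RBBP4 peak of the knockdown library overlapped 87 of the 937 peaks (9.28%, 7.5 to 11.3), against 42.6% (40.7 to 44.6) of peaks inside H3K4me3. Below a score of 80 it was 17 of 843 outside (2.02%, 1.18 to 3.21) and 309 of 1306 inside (23.7%, 21.4 to 26.1). From a score of 80 it was 70 of 94 outside (74.5%, 64.4 to 82.9) and 810 of 1318 inside (61.5%, 58.8 to 64.1). Of the 87 peaks found again, 46 lay in a cluster of 49 neighbouring peaks at chr9:2999989-3038325. Without that cluster, 4.62% (3.33 to 6.21) of 888 peaks outside were found again, with 7 of 832 below a score of 80 (0.841%, 0.339 to 1.73) and 34 of 56 above it (60.7%, 46.8 to 73.5). With the cluster left out, strong peaks outside H3K4me3 were thus found again about as often as strong peaks inside, with intervals that overlapped, whereas weak peaks outside were found again in a far smaller share than weak peaks inside, with intervals that did not. The 56 strong peaks still include peaks of other loci that were high in nearly all libraries, described below. Each of those loci was found again, against 9 of 18 loci of the other kinds.

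**Figure D1:**
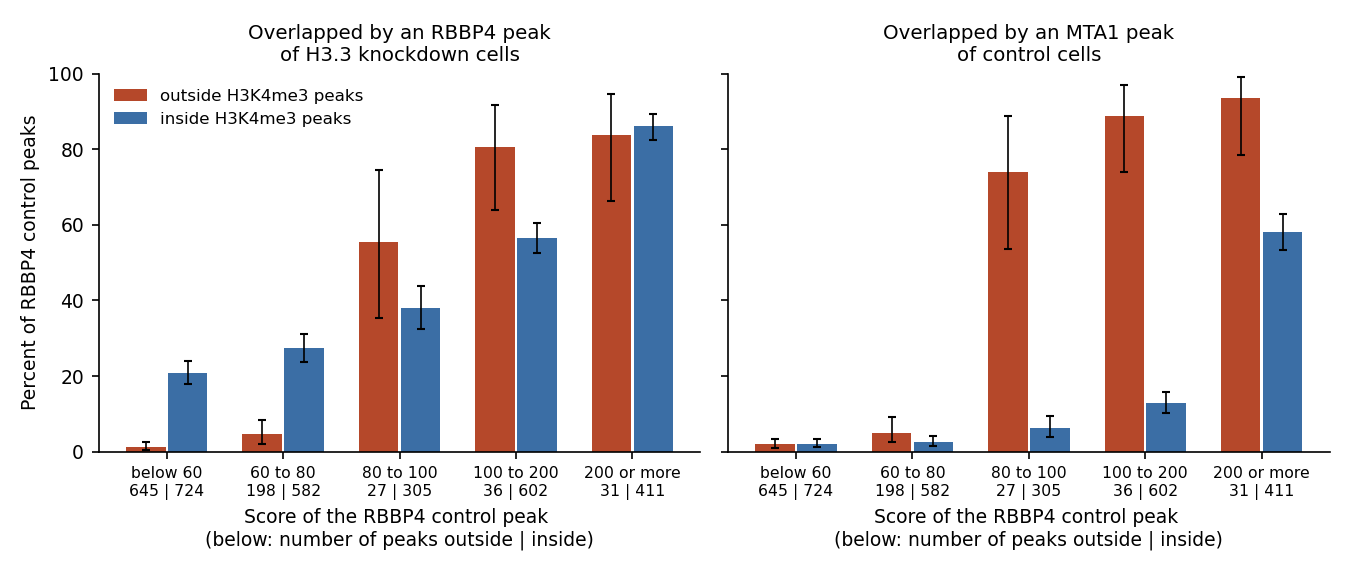
Percent of RBBP4 control peaks (y axis) that were overlapped by a knockdown RBBP4 peak (left) or a control MTA1 peak (right), by score class of the control peak (x axis), outside and inside H3K4me3, with exact 95% intervals as error bars and the number of peaks under each class. Outside H3K4me3 both shares were at most 5.05% below a score of 80 and at least 55.6% above it. The chr9 cluster is included. Without it the knockdown share outside at a score of 80 to 100 was 6 of 16 (37.5%, 15.2 to 64.6).

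MTA1, the NuRD subunit that links the deacetylases to the complex, went with RBBP4 at the strong peaks. Control MTA1 peaks overlapped 104 of the 937 peaks (11.1%, 9.16 to 13.3) and 365 of the 2624 inside (13.9%, 12.6 to 15.3). At matched scores the shares were far apart. From a score of 80, 81 of 94 peaks outside (86.2%, 77.5 to 92.4) had an MTA1 peak, against 335 of 1318 inside (25.4%, 23.1 to 27.9). Without the chr9 cluster it was 43 of 56 outside (76.8%, 63.6 to 87.0). Below 80 it was 2.73% outside and 2.30% inside, with overlapping intervals.

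Peaks found again were mostly peaks with MTA1, while the reverse held less fully. Of the 104 with MTA1, 80 were found again in the knockdown RBBP4 list (76.9%, 67.6 to 84.6), or 36 of 58 without the chr9 cluster (62.1%, 48.4 to 74.5), and of the 833 without MTA1 only 7 were (0.840%, 0.339 to 1.72). Inside H3K4me3 the 2259 peaks without MTA1 were found again in 35.9% (33.9 to 37.9). The 7 peaks outside that were found again without control MTA1 included the highest peak beside Neurog3 (score 399.01), a flanking peak of Mpdz and a peak in Sfi1. The 24 peaks with MTA1 that were not found again reached a score of 453.71, beside Pax4. Seen from the knockdown list, 452 of its 2919 peaks (15.5%) lay outside H3K4me3, and 95 of these (21.0%, 17.4 to 25.1) were overlapped by a control peak. MTA1 peaks lay outside H3K4me3 in larger shares than RBBP4 peaks, with 1088 of 1703 (63.9%) in control and 361 of 904 (39.9%) in knockdown cells.

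Most of the 937 peaks had no counterpart in unmodified cells. In the authors' table of 82893 regions, the union of the peaks of 8 libraries (6 subunits and 2 of HA-H3.3), a region lay under 145 of them (15.5%, 13.2 to 18.0), against 92.6% inside H3K4me3. An unmodified RBBP4 peak, from the same antibody, was in such a region for 86 (9.18%, 7.41 to 11.2), against 88.4% inside. At a score below 60 these shares were 3.72% and 79.1%, and at 200 or more 61.3% and 96.8%. HDAC2 followed with 71 peaks (7.58%), then MBD2/3 with 35, HDAC1 with 30, MTA1 with 26 and CHD4, the remodeller of NuRD, with 20 (2.13%). Inside H3K4me3 the shares were 64.9% for HDAC2, 33.8% for HDAC1, 11.5% for MTA1, 9.41% for MBD2/3 and 8.12% for CHD4. At scores of 100 to 200 the order turned for MBD2/3 (38.9% outside, 9.63% inside), CHD4 (30.6%, 8.64%) and MTA1 (27.8%, 12.6%). The intervals overlapped for MTA1. HDAC2 (55.6%, 71.1%) and HDAC1 (33.3%, 39.4%) had lower shares outside, but the intervals overlapped for both. At 200 or more MBD2/3 had 41.9% outside and 9.00% inside. These shares include the chr9 cluster.

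H3.3 and active histone marks were likewise rare there. A region with an HA-H3.3 peak in both replicates lay under 57 of the 937 (6.08%, 4.64 to 7.81), against 71.5% (69.7 to 73.2) inside. Replicate 1 alone gave 63 and replicate 2 alone 81. From a score of 80 the share outside was 17.0% (10.1 to 26.2), and without the chr9 cluster, which had none, 28.6% (17.3 to 42.2). An H3K27ac peak overlapped 9 of the 937 (0.961%, 0.440 to 1.82) and an H3K9ac peak 4 (0.427%), against 41.9% and 87.8% inside; both marks are themselves known to go with H3K4me3 at promoters. Of the 9 with H3K27ac, 3 were the wide peaks in Sfi1, which were also the only ones found again. The other 6 had scores of 50.62 to 61.85, 1 of them in Glis1, a Krüppel-like zinc finger gene, where H3K9ac was present too. In a sequential ChIP for FLAG-H3.3 and then RBBP4, none of the 6 deposited peaks overlapped a peak outside H3K4me3, and all 6 overlapped a peak inside. A list of 6 peaks is too short to speak for the 937.

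The strong peaks gathered into a small number of loci. When peaks within 10 kb were joined, the 937 made 854 loci, 834 of them of 1 peak, and 9 loci of 3 or more held 81 peaks. Of these 854, 32 were found again (3.75%) and 46 had control MTA1. A score of 100 or more was reached by 32 loci, of which 22 were found again and 29 had control MTA1. For 25 of the 32 the table of regions gives levels, as log2(RPKM + 1), in 11 unmodified or HA-H3.3 libraries, and these levels, which played no part in choosing the peaks except for H3K4me3, fell into 3 kinds when each was set against the 99th percentile of its library over all regions. The grouping was made after the values were seen and has no test. Where a locus held several regions, its levels were those of the region with the highest RBBP4 level. This choice favours RBBP4 in comparisons between libraries at such loci. A locus has levels only if 1 or more of the 8 libraries that define the regions has a peak there. Peaks and levels of these libraries at the 25 loci follow in part from that.

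At 7 loci, 10 or all 11 libraries were above their 99th percentile. The highest scoring locus of all was of this kind, at chr2:98502378-98507534, where 4 peaks lay 1031 kb from the nearest gene, Lrrc4c. It had a score of 2339.68 for control RBBP4, 2578.42 for knockdown RBBP4 and 2392.33 for control MTA1. Its log2 level was 7.13 for RBBP4, 7.53 for HDAC2, 7.02 for CHD4, 5.52 for H3K27ac, 5.70 for H3K4me3, and 5.73 and 5.22 for HA-H3.3, so that it was high in each library whatever the antibody. At the median region the RBBP4 level was 1.34 and the H3K27ac level 1.04. The others of this kind were chr9:35112783-35113189 (score 1186.01), the chr9 cluster of 49 peaks (991.86, 13 of its peaks assigned to the microRNA gene Mir101c), chr15:74915934-74917487 (475.23), chr12:3109857-3110127 (243.47) and 2 loci at Sfi1, a gene for a centrin-binding protein of the spindle poles. All 7 had an H3K27ac level of 3.62 to 5.52, and all 7 were found again and had control MTA1. Of the other 18 loci with levels, 9 were found again. HA-H3.3 peaks in both replicates were called at the 2 Sfi1 loci only, although HA-H3.3 levels were at least 4.39 and 3.84 at all 7. Whether copy number or mapping of reads plays a part was not tested, and no input level was used here.

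At 10 loci, 3 or fewer libraries were above their 99th percentile, and RBBP4 had the highest level of the 11 libraries at 8 of them, the exceptions being Acvr1b and Pmp22, where HA-H3.3 was higher. RBBP4 was highest at 2 of the 7 loci above and at 0 of the 8 described last. Near 2210019I11Rik, Pax4 and Neurog3 and at chr9:52618381-52618682, the locus has levels only through its unmodified RBBP4 peak. A high RBBP4 level there follows in part from this. At the median region RBBP4 was also the highest of the 6 subunit libraries (1.34, with HDAC2 next at 1.17), below HA-H3.3 at 1.82 and 2.01. At 5 of the 10 no library was above its 99th percentile, and at Acvr1b only HA-H3.3 replicate 2 was. The RBBP4 level passed its own percentile of 2.80 only at Cacng4, Mpdz, chr6:83165421-83170414 and near 2810008D09Rik. Cacng4, which encodes an auxiliary subunit of calcium channels and AMPA receptors, held 2 peaks at chr11:107645397-107646837 with scores of 1355.46 and 275.85. Its RBBP4 level was 3.93, with 2.65 for HDAC2, 2.11 for MTA1, 1.17 for CHD4, 0.97 for MBD2/3 and 0.55 for H3K27ac. In Mpdz, a gene for a scaffold protein of many PDZ domains, 3 peaks at chr4:80975432-80976516 had a top score of 664.57, and the RBBP4 level was 4.71 with 3.99 for HDAC2, 2.99 for HDAC1, 2.1 for MTA1, 0.35 for H3K27ac and 0.19 for H3K4me3. The RBBP4 level was thus 4.36 above that of H3K27ac on the log2 scale in Mpdz and 3.38 above it in Cacng4. Over the 25717 regions with an unmodified RBBP4 peak this difference had a median of 0.78 and a 95th percentile of 1.78, which 15 of the 25 loci exceeded: 6 of these 10, 7 of the 8 loci with 4 to 8 libraries above their percentile, and 2 of the 7 above. A large difference between RBBP4 and H3K27ac was therefore not limited to these 10 loci. At loci of several regions the choice of region favours a large difference.

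**Figure D2:**
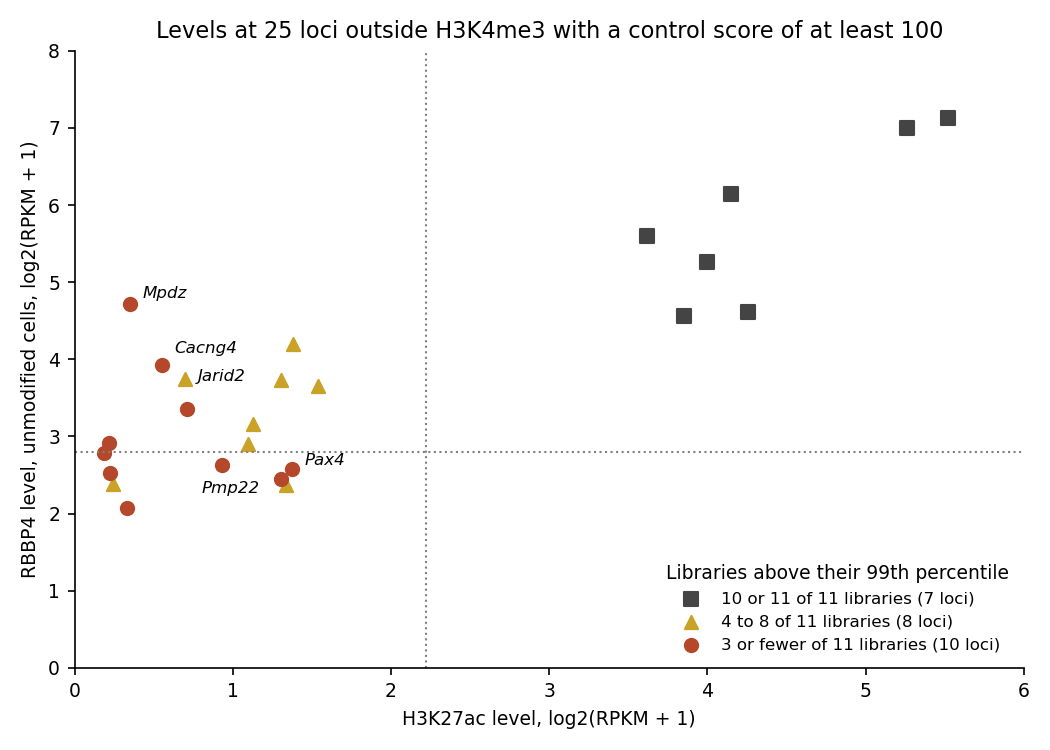
RBBP4 level in unmodified cells (y axis) against H3K27ac level (x axis), both log2(RPKM + 1), at the 25 loci outside H3K4me3 with a control score of at least 100 and a level in the table; dotted lines mark the 99th percentile of each library over all regions. The 7 loci high in 10 or 11 libraries had H3K27ac levels of 3.62 to 5.52, and the other 18 lay between 0.19 and 1.54.

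Others of the 10 lay at or near genes. Neurog3, the determinant of pancreatic endocrine progenitors, had 5 peaks at chr10:61590566-61593603, the closest of them 2551 bp from the gene, with scores up to 399.01. Its RBBP4 level was 2.78 and the levels of both HA-H3.3 replicates were 0.40 and 0.11. Pax4, a transcription factor of pancreatic beta cells, had 2 peaks at chr6:28400845-28401977 with a top score of 453.71 and an RBBP4 level of 2.58, measured at the smaller of the peaks because the higher one lies in no region. Acvr1b, which encodes a type I activin receptor, held 1 peak at chr15:101026513-101027076 with a score of 202.11, an RBBP4 level of 2.45 below the HA-H3.3 levels of 2.74 and 3.29. The same order held in Pmp22, with 2.62 for RBBP4 and 3.04 and 3.07 for HA-H3.3. The remaining ones were at chr5:148033525-148035738 near 2210019I11Rik (score 1052.03), chr6:83165421-83170414 (5 peaks, 321.98), near 2810008D09Rik (4 peaks, 201.26), at chr9:52618381-52618682 (142.13) and in Pmp22 (113.95). All 10 had an unmodified RBBP4 peak and 8 had control MTA1. An HDAC2 peak was present at 6, MTA1 of unmodified cells at 3, HDAC1 at 2, and CHD4 and MBD2/3 at 0, and HA-H3.3 was present in both replicates at 5. Near 2210019I11Rik, Pax4 and Neurog3 and at chr9:52618381-52618682, unmodified RBBP4 was the only one of the 8 region libraries with a peak. Their RBBP4 peak thus follows from taking loci with levels.

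In the knockdown list 5 of the 10 loci were found again and 5 were not. Mpdz had a score of 1360.23 there and Cacng4 of 257.36, while Neurog3 had 86.16, the chr5 locus 232.74 and the chr6:83165421-83170414 locus 157.43. Pax4, Acvr1b, Pmp22, 2810008D09Rik and the locus at chr9:52618381-52618682 had no knockdown peak. Scores of different lists are not on a common scale, and their depths are unknown. The 8 loci of the kind in between, with 4 to 8 libraries above the 99th percentile, had levels of 2.37 to 4.2 for RBBP4, 2.80 to 4.83 for HDAC2 and 0.24 to 1.54 for H3K27ac. Among them were single peaks in Lars2 (the mitochondrial leucyl-tRNA synthetase) and Camk1d, which were found again, and a locus of 2 peaks in Jarid2, a partner of PRC2, which was not. An MTA1 control peak overlapped all 8.

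The weak peaks were spread unevenly along the genome in a way that went with the level of the subunit libraries at HA-H3.3 regions. For each 5 Mb bin, that level was taken from regions without any subunit peak and set relative to the median bin. Each region holds a peak of at least 1 of the 8 libraries, so these regions were called for HA-H3.3 only. Their level may differ from that of the genome at large. Bins below 0.8 held 0.308 peaks outside H3K4me3 with a score under 80 on average, bins of 1.0 to 1.1 held 2.16 and bins of the highest class held 3.69. Peaks inside H3K4me3 of the same scores went from 1.15 in the lowest class to 3.38 and 3.07 in the last 2. Knockdown peaks outside H3K4me3 went from 0.231 to 1.79 and control MTA1 peaks outside from 0.615 to 3.83. Across 455 bins the Spearman correlation with the level was 0.51 for weak peaks outside and 0.23 for weak peaks inside, as a description, since bins share libraries and depth. The number of regions per bin, which also follows gene density, was 55.2 in the lowest class, 137.6 in the next to last and 124.1 in the last.

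**Figure D3:**
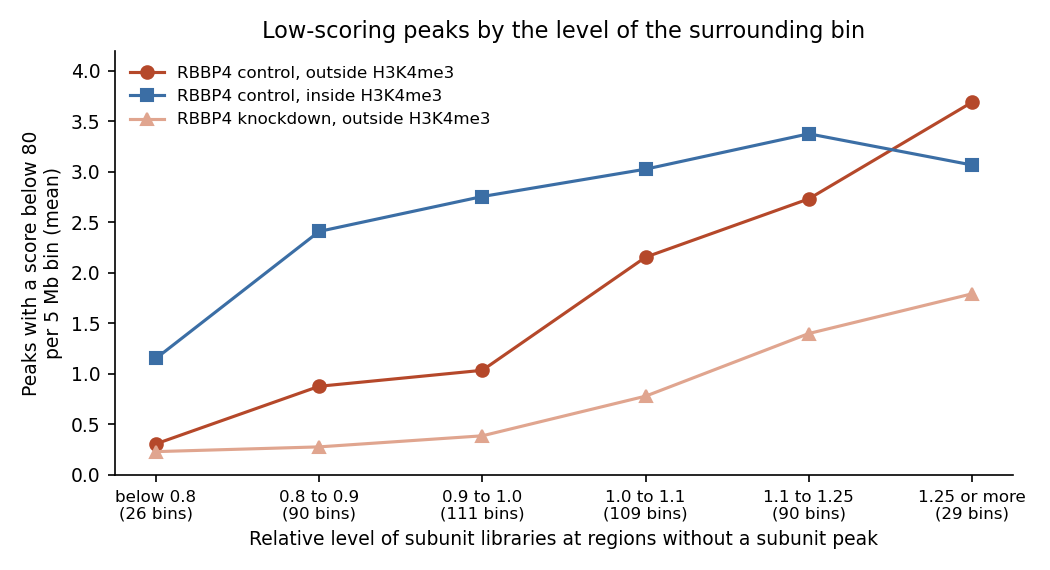
Mean number of peaks with a score below 80 per 5 Mb bin (y axis) by the relative level of 6 subunit libraries at regions without a subunit peak (x axis, number of bins below). These regions were called for HA-H3.3 only. Control peaks outside H3K4me3 went from 0.308 to 3.69 per bin, and control peaks inside from 1.15 to 3.07.

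Single chromosomes showed the same order in part. Chromosome 6 held 120 of the 937 peaks (12.8%), against 6.52% of the peaks inside H3K4me3. It had 4.00 weak peaks outside H3K4me3 per bin at a median relative level of 1.21, chromosome 15 had 3.67 at 1.16 and chromosome 11 had 3.12 at 1.23. The X chromosome had 0.235 at 0.69. Chromosomes 1 and 12 went against this order, with 0.743 peaks per bin at a level of 1.04 and 0.737 at 1.09. Whether copy number differs between these chromosomes in this line was not tested.

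In position, the peaks outside H3K4me3 were spread over gene intervals and the sequence between them. The midpoint of 388 (41.4%, 38.2 to 44.6) lay inside a gene interval of the expression tables, against 74.0% inside H3K4me3. Another 135 lay within 10 kb of a gene, 284 (30.3%) lay at 10 to 100 kb and 130 (13.9%) beyond 100 kb, against 4.34% and 0.762% inside for the last 2 classes. The closest gene start was within 1 kb for 8 of 914 peaks with a start of known strand on their chromosome (0.875%), and for 59.7% inside. From a score of 200, 6 of 31 peaks (19.4%) were inside a gene, against 80.8% of peaks inside H3K4me3 of that score. Without the chr9 cluster it was 6 of 20 (30.0%, 11.9 to 54.3).

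**Figure D4:**
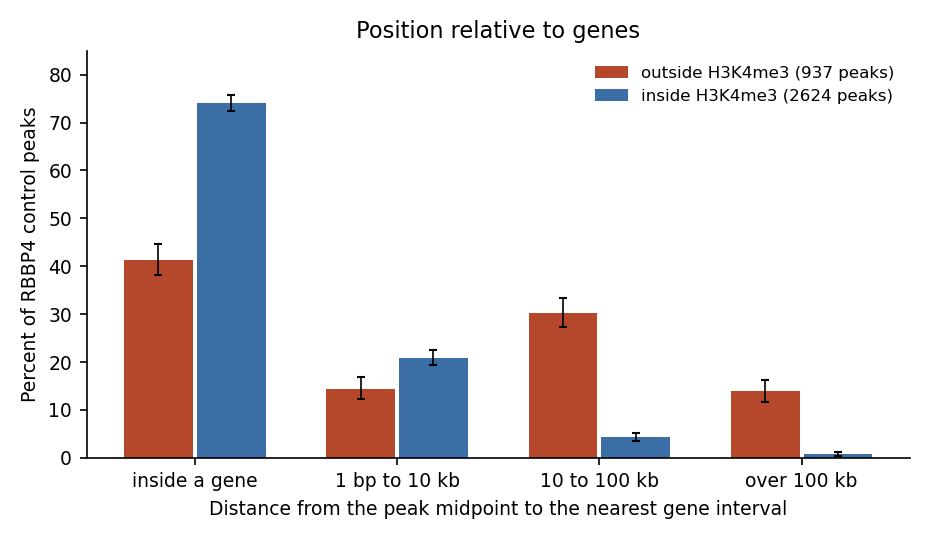
Percent of RBBP4 control peaks (y axis) by distance from the peak midpoint to the nearest gene interval (x axis), outside and inside H3K4me3, with exact 95% intervals. Of the peaks outside H3K4me3, 41.4% lay inside a gene and 13.9% more than 100 kb from any, against 74.0% and 0.762% inside.

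Most of the genes at these peaks had low RNA levels in the control clones. A gene was taken as at a peak when its interval held the midpoint, or when it was the nearest within 10 kb, which gave 483 genes. Of these 190 (39.3%, 35.0 to 43.9) had a mean control FPKM of at least 1, against 93.3% of 1818 genes at peaks inside H3K4me3 and 48.2% of all 23951 genes. The median FPKM was 0.10, 12.7 and 0.707 in these 3 sets. Genes listed at 0 in both controls were nevertheless fewer than among all genes, at 16.8% against 24.7%. The first 2 sets share 68 genes, among them Mpdz, Pmp22, Met and Ror1, and of the 415 genes at peaks outside H3K4me3 alone 31.1% (26.7 to 35.8) reached an FPKM of 1, with a median of 0.0589. Ptprd, a receptor tyrosine phosphatase, and Ctnnd2, a delta catenin, held 4 weak peaks each and had at most 0.016 and 0.031 FPKM in any clone. A longer gene interval can hold more midpoints. Gene length was not taken into account for these RNA levels or peak numbers. At the strongest loci, Cacng4 had at most 0.032 FPKM in any clone, Pax4 at most 0.024, and Neurog3 and 2210019I11Rik were listed at 0 in all 5. Mpdz was expressed, with an FPKM of 44.5 and 35.6 in the control clones and 31.0, 39.7 and 39.9 in the knockdown clones.

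The targeted genes had lower values in each knockdown clone than in both controls, with 128.3 and 143.5 FPKM against 71.8, 35.6 and 5.05 for H3f3a, although neither it nor H3f3b passed the test over all genes (limma adjusted p = 0.516 and 0.469). Rbbp4 itself had 81.1 and 65.9 FPKM in the controls and 55.9, 61.2 and 65.7 in the knockdown clones. Of 10 fibroblast markers 9 had at least 1 FPKM in both controls, with a summed FPKM of 5303 and 5519, and Fap was listed at 0. Of 28 markers of other cell types 7 did, with a summed FPKM of 78.5 to 79.5, the highest being the muscle actin gene Acta1 (53.8 and 38.6). Lower values were held by Cdh5 (3.78 and 6.89) and Egfl7 (5.01 and 6.30) of the endothelial list, Cd14 (5.95 and 7.52) of the haematopoietic list and Krt14 (1.64 and 1.28) of the epithelial list, while Epcam and Myod1 were listed at 0.

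No gene at these peaks passed the test between knockdown and control RNA. With limma on log2(FPKM + 1) and Benjamini-Hochberg adjustment, 0 of 190 tested genes were called, as were 4 of all 11728 (0.0341%), and the smallest adjusted p was 0.336. At an unadjusted p under 0.05, 3 genes were higher (1.58%, against 3.5% of all genes) and 14 lower (7.37%, against 6.31%). In 21 genes all knockdown clones lay above both controls (11.1%, against 11.4% of all genes) and in 42 below them (22.1%, against 21.2%), so that both shares were near the background. The median log2 difference was -0.12 for the 190 genes, -0.16 for the 1704 genes at peaks inside H3K4me3 and -0.10 for all genes. Clones of 1 line are not separate animals, and p-values measure the spread between these clones. The lack of calls does not show that RNA was unchanged, since the targeted H3f3a did not pass either.

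Among the genes of smallest p, Atp6v1b2, a subunit of the vacuolar proton pump, held a peak of score 54.75. Its FPKM was 63.0 and 84.8 in the controls and 27.8, 27.7 and 21.3 after knockdown. By limma the log2 difference was -1.49 with an SE of 0.23 (adjusted p = 0.336). Arhgdib had 304.2 and 359.9 against 193.4, 197.7 and 193.5 (log2 difference -0.76, adjusted p = 0.442), and the glycosyltransferase gene Galnt12 had 5.78 and 4.46 against 2.43, 1.90 and 1.11 (-1.14, adjusted p = 0.442). In each of these genes the groups did not overlap. The ubiquitin ligase gene Rnf220 (-0.66), the G protein gene Gna12 (-0.70) and the septin gene Sept8 (-0.63) were the next on this side. All 6 were at peaks with a score below 75 that had neither MTA1 nor a knockdown peak.

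On the other side, Sparc, which encodes a collagen-binding matricellular protein, had a peak of score 84.20 at 7521 bp from the gene. Its FPKM was 503.6 and 657.0 in the controls and 1314, 1046 and 1051 after knockdown. By limma the log2 difference was 0.97 with an SE of 0.22 (adjusted p = 0.428). Pmp22, a membrane protein of myelin that fibroblasts also make, had 19.6 and 24.9 against 113.1, 49.5 and 40.5 (1.43, adjusted p = 0.470). Lars2 had 34.5 and 25.5 against 158.5, 35.4 and 96.2 (1.43, adjusted p = 0.517), with knockdown clone 2 close to the controls. Serpinb1a, an inhibitor of neutrophil proteases, had 0.169 and 0.420 against 1.13, 1.11 and 4.53 (1.18), and the unnamed transcripts 1700048O20Rik and 1700018L02Rik had 1.23 and 0.56. None of these 12 genes passed the test.

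**Figure D5:**
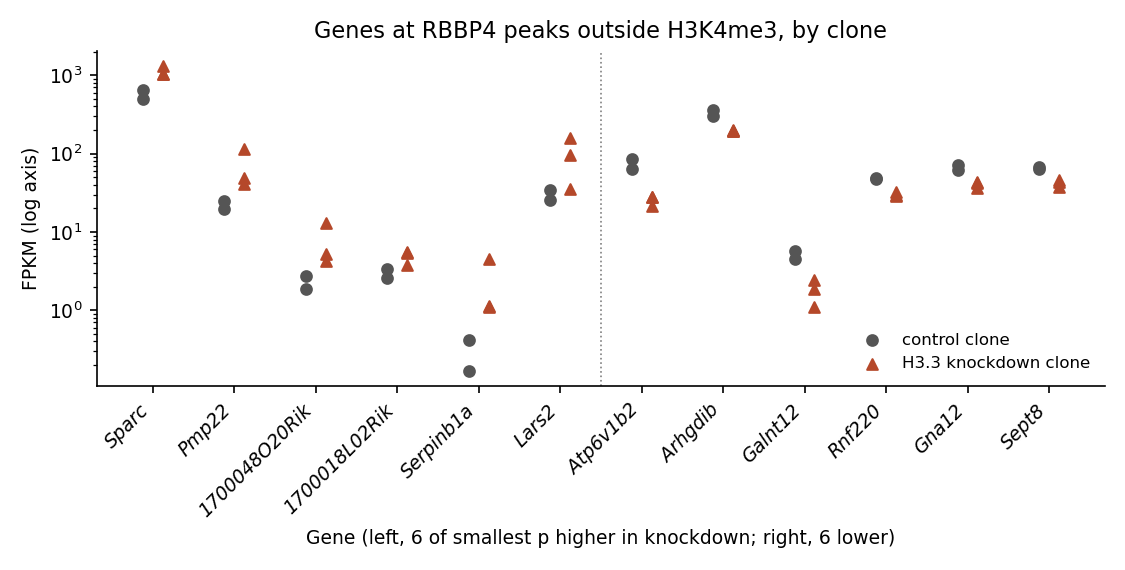
FPKM on a log axis (y axis) in the 2 control and 3 knockdown clones for the 12 genes at these peaks with the smallest p, 6 on each side (x axis); each point is 1 clone. The groups do not overlap in any of the 12, and the smallest limma adjusted p is 0.336.

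Of 176 genes in 14 lists, 7 lay at these peaks (3.98%), against 2.02% of all genes. The lists of NuRD subunits (15 genes), AP-1 factors (12) and developmental regulators (20) had no member there, and lists of that size are too short to read this against the share of all genes. The list of developmental regulators did not hold Neurog3 or Pax4, which lay at strong loci above, so it does not speak for all such genes. Jarid2 was 1 of 17 from other RBBP4 complexes. Jarid2 held 2 peaks with MTA1 (top score 164.47), and its FPKM was 2.11 and 2.59 in the controls and 3.34, 2.66 and 2.35 in the knockdown clones, so the groups overlapped. From the receptor list came Met, the receptor of hepatocyte growth factor (score 55.00; FPKM 42.7 and 32.8 against 13.3, 37.0 and 29.3), and the orphan receptor Ror1 (52.30; 4.81 and 3.59 against 9.56, 5.46 and 5.58). Bub1b, a kinase of the mitotic checkpoint, Actg2, an enteric smooth muscle actin, and the surface glycoprotein Thy1 each had 1 peak with a score of 51.42 to 59.85, and Sparc, above, was the only one from the matrix list. Apart from Jarid2, none of these peaks had MTA1, and none of the 7 genes had a peak that was found again. Of all genes, those with the most peaks, without regard to gene length, were Mir101c (13, in the chr9 cluster), Sfi1 (6), Neurog3 (5) and Mid1, Mpdz, Ctnnd2, Ptprd and 2810008D09Rik (3 or 4 each). Sfi1 had 11.5 and 15.6 FPKM in the controls and 17.8, 11.7 and 19.4 in the knockdown clones, and Mid1, a ubiquitin ligase of microtubules, had 19.5 and 15.2 against 73.2, 35.5 and 15.6.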

How the data were processed

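Peaks and expression values were used as deposited, on mm9; MACS2, Bowtie, bedtools, TopHat, Cufflinks and Cuffdiff appear in the submitters' processing notes. The RBBP4, MTA1 and histone lists hold 1 deposited score per peak, 1 list per library, and the depth behind them is unknown. Levels are log2(RPKM + 1) per region as deposited, a scale checked because every value below 100 reads was then a whole number of reads within 0.05. A table deposited by the authors gives the fraction of each region covered by peaks of each library, used as present or absent. The sequential ChIP list, made with MACS2 per the file headers, gives the pileup signal, fold enrichment and -log10 p and q of each peak as deposited, of which only positions were used. The FPKM values were deposited by the authors per gene and clone.

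Overlap needed 1 bp; intervals are exact Clopper-Pearson 95% intervals (scipy 1.17.1), and overlap was checked with bedtools 2.31.1. Clones were compared with limma 3.58.1 in R 4.3.3 (two-sided, with a mean-variance trend) for the 11728 genes whose mean FPKM reached 1, on log2(FPKM + 1), a scale that understates changes of low genes. On simulated data with 200 genes changed by 3 on the log2 scale, 80% were recovered.

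Genes named are those at the 10 highest scoring loci, the 10 with most peaks, those with a found-again peak and H3K27ac, the 6 of smallest p per side, and up to 4 a list from 14 lists; other genes and loci were named after their values were seen. The peaks, lists and rules were chosen with earlier results of these data known. Alternatives covered overlap, distance, score, gene assignment, pseudocount, filter, normalization, trend, clones left out and a clone block. An mm9 genome was not used here, so peak sequences are not shown.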

Additional observations from a re-analysis of the deposited data

How the results depend on the processing

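The number of peaks outside H3K4me3 was 894 without those within 1 kb of an H3K4me3 peak, 292 at a score of at least 60 and 67 at a score of at least 100. The share found again in knockdown cells was 27.1% at a score of at least 60, 82.1% at 100, 0.840% without peaks that had control MTA1, 5.55% with knockdown peaks of at least 100, and, chosen after seeing the data, 3.75% with each joined locus counted once and 4.62% without the chr9 cluster. For control MTA1 these shares were 31.2% and 91.0% by score, 5.39% by locus and 6.53% without the cluster. For unmodified RBBP4 they were 21.2% and 53.7% by score, 5.04% without MTA1 peaks, 6.44% by locus and 11.4% within 500 bp, and for HA-H3.3 in both replicates 10.6%, 17.9% and, within 500 bp, 8.11%. H3K27ac reached 4.48% at a score of 100, and the share inside a gene was 37.3% at 60 and 26.9% at 100. All other settings for these shares stayed within the interval of the main value. Fewer and stronger peaks enter at a higher score; the cause of the other moves was not tested.

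No gene at these peaks was called in 15 of 16 alternative RNA settings, those without each clone included (0 in each of the 5, while over all genes 8 to 30 were called without 1 clone, in place of 4). Without a filter on low values 1 of 418 was called, Raet1b (named after its values were seen; FPKM 1.02 in both controls and at most 0.000722 in the knockdown clones, limma adjusted p = 0.0139), which shares its interval with the similar genes Raet1a and Raet1c. With the clone number as a replicate block the count was 0, and over all genes it was 0 in place of 4, with 504 at an unadjusted p under 0.05. Same-numbered clones had correlated deviations of -0.25 and -0.095. These values cannot tell whether the numbers pair the clones, since the deviations of 2 controls from their mean mirror each other. With 2 control and 3 knockdown clones, and 1 library per ChIP condition of unknown depth, small differences cannot be resolved.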
